A study of Homo sapiens with 18 samples.

Results

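The Aurora kinases and the chromosomal passenger complex were followed through 8 genes: AURKA, AURKB and AURKC, which encode the kinases, INCENP, CDCA8 and BIRC5, which encode the other subunits of the passenger complex, and TPX2 and BORA, which encode activators acting with Aurora A. They were taken by symbol as members of this machinery, with earlier results of these data known, and all 8 were found among the 57773 gene identifiers of the deposited table. Of the 13037 genes that reached the minimum mean level for testing (0.5 RPKM over all libraries), 6 were from this set. BORA and AURKC lay below it and are described by their levels and by the settings that admit them. RPE1 is an established human line derived from retinal pigment epithelium and immortalised with telomerase. RPE1 cells were left untreated, treated with ZM447439, an inhibitor of the Aurora kinases, or given cytochalasin D, a toxin that stops actin filaments from growing and so prevents cytokinesis. Cells were then sorted by DNA content into a 2N and a 4N population. The 3 biological replicates made 18 libraries in 6 groups: untreated 2N, untreated 4N, cytochalasin D 2N, cytochalasin D 4N, ZM447439 2N and ZM447439 4N. The protocol in the labels names 10% fetal bovine serum, ZM447439 at 2.5 µM for 24 h and the DNA dye Hoechst at 2 µg/mL for 60 min. It reads the same for every library, untreated ones included, and gives neither dose nor time for cytochalasin D. The controls were described as untreated, so no vehicle is named. The replicates were sorts of 1 cell line, and the labels do not say how the cultures were kept apart. Libraries of the same drug and number are taken below as the 2 sorts of 1 culture, which the labels do not state.

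The Aurora kinases are serine/threonine kinases of mitosis. Aurora A acts at centrosomes and on spindle microtubules: TPX2 brings it to the spindle and holds it in its active form, and Bora lets it phosphorylate PLK1 before mitotic entry. Aurora B is the catalytic subunit of the chromosomal passenger complex, in which INCENP is the scaffold and activator, and Survivin (BIRC5) and Borealin (CDCA8) bring the complex to the inner centromere. There it releases wrongly attached microtubules, and in anaphase it moves to the central spindle, where it is needed for cytokinesis. Aurora C takes the place of Aurora B in germ cells. The genes of this machinery are classical genes of the late cell cycle, low in G1 and induced towards mitosis. A 2N sort collects mainly G1 cells, whereas a 4N sort can hold diploid cells in G2 or mitosis and tetraploid cells in G1. The direct target of ZM447439 is the activity of the kinases, and only transcripts were measured here.

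Promoters are shown for the genes found in RefSeq's table (GRCh38.p14). They were added with the results below known, and the part of their motifs in the changes was not tested. The table held starts for 5 of the 8 genes (CDCA8, INCENP, BORA, AURKB and AURKC), and AURKA, BIRC5 and TPX2 had no entry in it. The sequences below are the 250 bases before the annotated start, 5′ to 3′ on the gene's strand, with capitals marking 2 motifs. The first is the cell cycle genes homology region (CHR), searched as TTTGAA or TTCGAA on either strand. The second is the CCAAT box, searched as CCAAT on either strand, so that ATTGG is its reverse complement. On GRCh38.p14 the 250-base window of CDCA8 spans chr1:37692266-37692515 (+), that of INCENP chr11:62123761-62124010 (+), that of BORA chr13:72727673-72727922 (+), that of AURKB chr17:8210250-8210499 (-) and that of AURKC chr19:57230773-57231022 (+).
CDCA8: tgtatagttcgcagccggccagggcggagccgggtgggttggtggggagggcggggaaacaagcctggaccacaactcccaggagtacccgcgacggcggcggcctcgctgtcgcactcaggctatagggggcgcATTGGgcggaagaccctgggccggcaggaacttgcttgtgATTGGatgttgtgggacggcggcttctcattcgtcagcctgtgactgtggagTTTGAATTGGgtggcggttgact
INCENP: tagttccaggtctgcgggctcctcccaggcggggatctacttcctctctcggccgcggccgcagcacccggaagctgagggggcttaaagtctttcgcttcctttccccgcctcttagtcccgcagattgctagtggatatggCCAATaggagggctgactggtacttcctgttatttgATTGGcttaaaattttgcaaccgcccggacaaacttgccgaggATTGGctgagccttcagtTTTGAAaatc
BORA: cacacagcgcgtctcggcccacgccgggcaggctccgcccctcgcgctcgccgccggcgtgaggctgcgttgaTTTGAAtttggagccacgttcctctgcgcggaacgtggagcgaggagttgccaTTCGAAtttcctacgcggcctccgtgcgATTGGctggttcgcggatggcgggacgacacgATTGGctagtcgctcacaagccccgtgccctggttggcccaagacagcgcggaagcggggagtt
AURKB: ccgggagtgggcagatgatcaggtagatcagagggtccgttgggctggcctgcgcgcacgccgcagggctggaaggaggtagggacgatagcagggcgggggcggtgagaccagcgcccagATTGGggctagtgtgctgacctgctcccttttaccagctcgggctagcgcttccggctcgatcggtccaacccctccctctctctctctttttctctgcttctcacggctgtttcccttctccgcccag
AURKC: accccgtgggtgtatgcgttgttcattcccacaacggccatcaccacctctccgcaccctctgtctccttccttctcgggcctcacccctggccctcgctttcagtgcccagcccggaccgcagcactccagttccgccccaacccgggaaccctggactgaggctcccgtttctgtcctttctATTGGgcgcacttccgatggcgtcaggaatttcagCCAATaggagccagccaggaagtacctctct
CDCA8 held TTTGAA from 23 to 18 bases before the start, and its last base was the first of an ATTGG. INCENP held TTTGAA from 10 to 5 bases before the start, with CCAAT boxes beginning 107, 71 and 28 bases before it. BORA held both CHR forms farther out, beginning 177 and 124 bases before the start, with ATTGG at 96 and 64. The AURKB window held an ATTGG 129 bases before this start, the farther upstream of its 2 starts in RefSeq's table, and no CHR. The window of the other AURKB start in that table was searched too. It held an ATTGG 153 bases before that start and no CHR. Starts of AURKB outside the table were not searched, so a CHR before such a start would be missed here. AURKC held an ATTGG at 66 and a CCAAT at 31, and no CHR. Among all 35116 start records of the table, 14.3% held a CHR in this window, 32% a CCAAT box and 5.05% both, and 2.43% held a CHR in the last 50 bases. Such matches describe the letters and do not show that a factor binds there.

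The values were RPKM (reads scaled by library size and gene length) that the authors computed over the genomic span, introns included, as the steps between low values showed. They compare 1 gene between libraries, and levels of different genes are compared below only after division by exon length. Implied library sizes ran from 51135642 to 78294394 reads, which put 200 to 29616 reads on each of the 6 tested genes, 222 to 1862 on BORA and 3 to 30 on AURKC. The span behind the AURKC values was not settled uniquely, so its read numbers are approximate. BORA overlaps DIS3, a subunit of the RNA exosome, by 4030 bases on the opposite strand, and the kit did not mark strand, so reads in that stretch cannot be assigned to either gene. AURKC is a close paralogue of AURKB, and how reads matching both were counted is not stated in the sources used. Across all tested genes, 6 libraries stood apart from their groups: both sorts of untreated number 3, cytochalasin D number 1 and ZM447439 number 1. Their deviations from the group means had an SD of 0.16 to 0.21 on the log2 scale, against 0.11 to 0.14 in the other 12 libraries. Of 8 markers of retinal pigment epithelium, BEST1, OTX2, KRT8 and KRT18 passed the filter, while RPE65, a defining enzyme of that tissue, reached at most 0.0356 RPKM and MITF, TYRP1 and RLBP1 stayed under the filter. None of 5 blood cell markers passed it, while 2 of 3 fibroblast markers did and are given beside the drug comparisons. Overlapping genes were looked up for the 8 Aurora and passenger complex genes alone. The marker levels, BEST1 at a mean of 86.6 RPKM included, may therefore hold reads of genes on the opposite strand.

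Every tested gene was highest in untreated 4N cells, next in untreated 2N cells, and lower in all 4 drug-treated groups on average. AURKA measured 2.48, 2.56 and 1.49 RPKM in the 3 untreated 2N libraries and 8.96, 8.69 and 9.37 in the 3 untreated 4N libraries, in the order of their numbers. It measured 0.575, 0.270 and 0.265 in cytochalasin D 2N and 0.806, 0.606 and 0.599 in cytochalasin D 4N libraries. It measured 0.758, 0.384 and 0.302 in ZM447439 2N and 1.04, 1.46 and 1.45 in ZM447439 4N libraries. Untreated number 3 was the low value of its 2N group, and number 1 was the high value in both drug groups of 2N cells. The untreated groups overlapped with no other group, and ZM447439 4N lay above cytochalasin D 4N without overlap. The 2 lowest groups, cytochalasin D 2N and ZM447439 2N, overlapped, as did cytochalasin D 4N and ZM447439 2N.

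**Figure D1:**
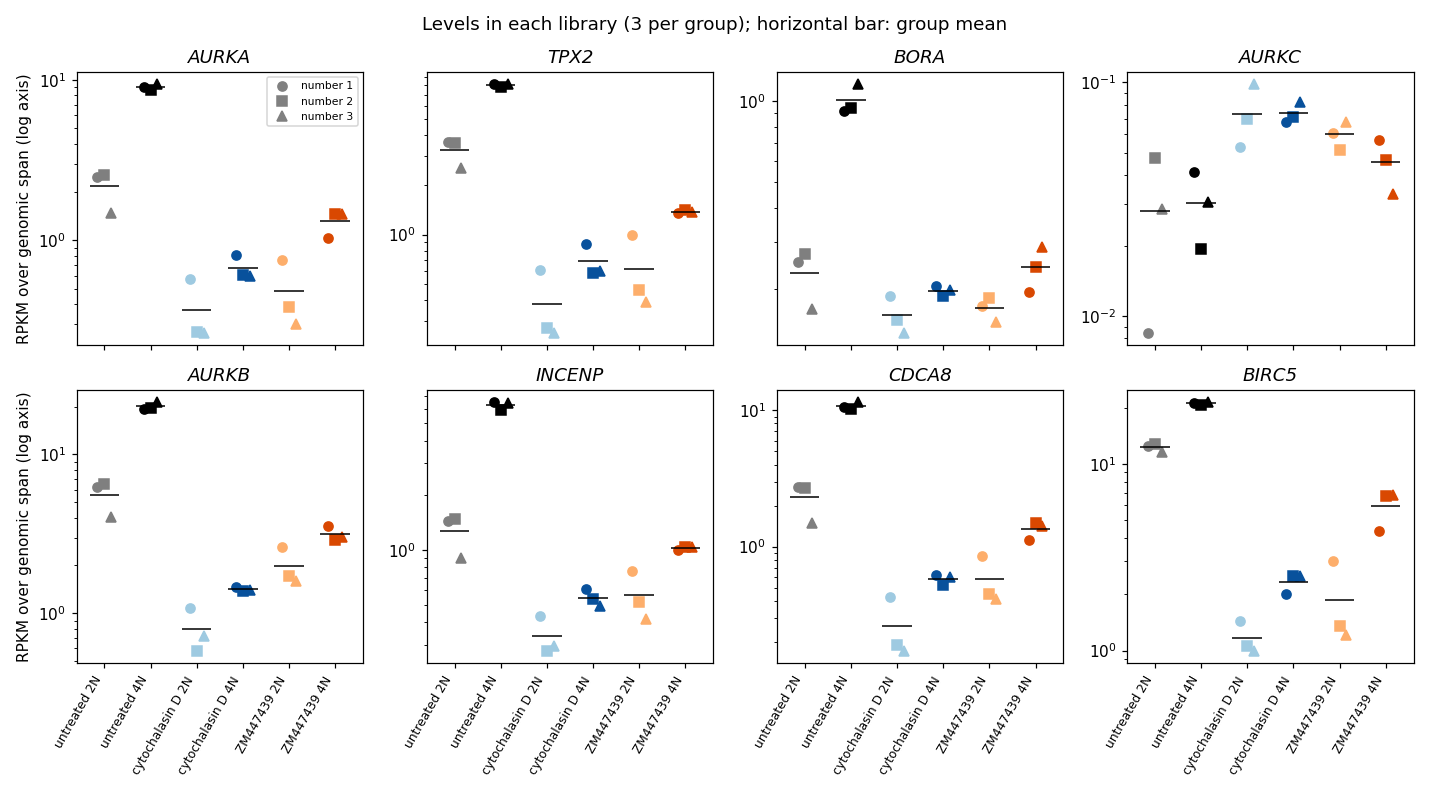
Level of each of the 8 genes in each library, in RPKM over the genomic span on a log axis that differs between panels; points are libraries, their shape gives the replicate number, and the bar is the group mean (n = 3). In 7 panels the untreated 4N libraries lie above all others, with AURKA at 8.69 to 9.37 RPKM, and AURKC at most at 0.0982 RPKM lacks that peak.

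TPX2, the partner that places Aurora A on the spindle, followed the same order with a smaller step between the untreated sorts. Its untreated 2N libraries held 3.61, 3.58 and 2.52 RPKM and the untreated 4N libraries 8.10, 7.86 and 8.11. With cytochalasin D the values were 0.609, 0.270 and 0.253 in 2N and 0.882, 0.585 and 0.598 in 4N cells. With ZM447439 they were 0.995, 0.463 and 0.389 in 2N and 1.35, 1.40 and 1.37 in 4N cells. The ZM447439 4N libraries were tight and stood above every cytochalasin D library, whereas cytochalasin D 2N and 4N cells overlapped through culture number 1. BORA, which carries Aurora A to PLK1, was a low gene with 1 high group. Its level was 0.919, 0.944 and 1.15 RPKM in untreated 4N libraries, and 0.253, 0.270 and 0.169 in untreated 2N libraries. The 12 drug-treated libraries ran from 0.138 to 0.286 RPKM and overlapped with untreated 2N cells in each drug and sort.

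AURKB, the kinase of the passenger complex, held 6.23, 6.48 and 4.06 RPKM in untreated 2N and 19.5, 19.5 and 21.4 in untreated 4N libraries. With cytochalasin D it held 1.08, 0.579 and 0.715 in 2N and 1.47, 1.38 and 1.41 in 4N libraries. With ZM447439 it held 2.61, 1.71 and 1.60 in 2N and 3.55, 2.90 and 3.03 in 4N libraries. For AURKB no 2 neighbours in the order of groups overlapped, and both ZM447439 groups stood above both cytochalasin D groups. INCENP, the scaffold, held 1.44, 1.49 and 0.900 RPKM in untreated 2N and 6.52, 5.87 and 6.48 in untreated 4N libraries. It held 0.431, 0.278 and 0.294 in cytochalasin D 2N and 0.607, 0.535 and 0.492 in cytochalasin D 4N libraries, and 0.770, 0.513 and 0.416 and 1.00, 1.04 and 1.04 in the ZM447439 2N and 4N libraries. The ZM447439 4N values of INCENP reached into the range of untreated 2N cells through untreated number 3.

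CDCA8, which encodes Borealin, held 2.75, 2.70 and 1.48 RPKM in untreated 2N and 10.6, 10.2 and 11.5 in untreated 4N libraries. It held 0.424, 0.191 and 0.172 in cytochalasin D 2N and 0.617, 0.526 and 0.594 in cytochalasin D 4N libraries. It held 0.854, 0.452 and 0.415 in ZM447439 2N and 1.12, 1.49 and 1.42 in ZM447439 4N libraries, and the last group overlapped with untreated 2N cells. BIRC5, which encodes Survivin, had the smallest step between the untreated sorts among the tested genes, from 12.4, 12.8 and 11.6 RPKM in 2N to 21.2, 20.8 and 21.4 in 4N libraries. With cytochalasin D it held 1.45, 1.05 and 0.995 in 2N and 2.00, 2.52 and 2.50 in 4N libraries. With ZM447439 it held 3.01, 1.35 and 1.22 in 2N and 4.35, 6.73 and 6.85 in 4N libraries. In ZM447439 culture number 1 was the highest of the 2N and the lowest of the 4N libraries for BIRC5, and no 4N library overlapped with a 2N library.

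AURKC did not share this order. Its highest level in any library was 0.0982 RPKM, and its means were 0.0281 ± 0.0195 RPKM (SD, n = 3) in untreated 2N, 0.0305 ± 0.0111 in untreated 4N, 0.0736 ± 0.0229 in cytochalasin D 2N, 0.0738 ± 0.00770 in cytochalasin D 4N, 0.0600 ± 0.00837 in ZM447439 2N and 0.0455 ± 0.0116 in ZM447439 4N cells. Untreated libraries held 3 to 11 AURKC reads and cytochalasin D libraries 15 to 30, with no overlap between the 2 treatments in either sort. When the filter on low values was dropped (45103 genes), AURKC was higher with cytochalasin D in 4N cells by 0.11 (SE 0.03) on the log2(RPKM + 0.5) scale with adjusted p = 0.00853, and in 2N cells by 0.12 (SE 0.03) with adjusted p = 0.00680. In that fit 18% of all genes were called higher in 4N and 17.5% in 2N cells. With ZM447439 its difference from untreated cells did not pass in 4N (adjusted p = 0.426) or 2N cells (adjusted p = 0.0569).

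Per kilobase of exon, which allows genes to be set side by side, TPX2 was the most abundant of the 8 in untreated 4N cells at 139 ± 2.45 RPM per kilobase (SD, n = 3; RPM are reads scaled by library size alone). CDCA8 followed at 75.4 ± 4.54, AURKA at 70.6 ± 2.69, BIRC5 at 63.4 ± 1.02, AURKB at 52.6 ± 2.84 and INCENP at 41.0 ± 2.39. The ranges of CDCA8 and AURKA overlapped. BORA stood at 8.91 ± 1.13 and AURKC at 0.0712 ± 0.0258. In untreated 2N cells BIRC5 took the place after TPX2, at 36.9 ± 1.84 against 56.1 ± 10.8, and INCENP at 8.31 ± 2.12 was the lowest of the 6 tested genes. In ZM447439 4N cells TPX2 stood at 23.9 ± 0.439, BIRC5 at 17.9 ± 4.23 and AURKB at 8.27 ± 0.894. All reads of the span are counted in these values, reads from introns included.

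The comparison of untreated 4N with untreated 2N cells asks how the genes follow the normal cell cycle. All 6 tested genes were higher in 4N cells by limma with Benjamini-Hochberg (BH) adjustment over all 13037 genes and a threshold of 0.05, where 17.4% of all genes were called and 12.9% were called higher. CDCA8 differed most, by 2.04 (SE 0.19) on the log2(RPKM + 0.5) scale with adjusted p = 4.00e-06, followed by INCENP with 1.95 (SE 0.13, adjusted p = 2.53e-07). AURKA rose by 1.85 (SE 0.19), AURKB by 1.78 (SE 0.17) and TPX2 by 1.21 (SE 0.19, adjusted p = 0.000429). The ratios of mean RPKM ran from 1.72 for BIRC5 to 4.94 for INCENP among the 6. The median over them was 1.82, against 0.04 over all genes tested. Within the 3 cultures, AURKA was 3.61, 3.39 and 6.29 times as high in 4N as in 2N cells in numbers 1, 2 and 3, and CDCA8 3.85, 3.78 and 7.75 times. Culture 3 had the largest ratio and the lowest 2N level for each of the 6 genes. BIRC5 rose by 0.76 (SE 0.22, adjusted p = 0.0281), with culture ratios of 1.71, 1.62 and 1.85. Its call did not hold with culture as a block (adjusted p = 0.0862), nor without any 1 of the 6 untreated libraries (adjusted p = 0.0595 to 0.0877). In RPM, which admits BORA (17974 genes, 15.3% called higher), BORA rose by 1.98 (SE 0.15, adjusted p = 4.86e-07).

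Both drugs were compared with untreated cells of the same sort, the 4N sorts first. With cytochalasin D all 6 tested genes fell in 4N cells, where 70.5% of all genes were called and 44.4% were called lower. The log2 change was -3.42 for AURKB (SE 0.17, adjusted p = 4.03e-10), -3.38 for CDCA8 (SE 0.19), -3.03 for AURKA (SE 0.19), -2.94 for BIRC5 (SE 0.22), -2.85 for TPX2 (SE 0.19) and -2.70 for INCENP (SE 0.13). Mean RPKM was 0.0538 of the untreated value for CDCA8, 0.0705 for AURKB and 0.111 for BIRC5, written as a ratio. With a pseudocount of 0.1 the log2 change was -4.00 for CDCA8 and -3.73 for AURKB, so the order of these 2 depends on the pseudocount. The median log2 change of the 6 was -2.98, against -0.13 over all genes. With ZM447439 all 6 fell in 4N cells, where 55.2% of all genes were called and 35.5% were called lower. The log2 change was -2.61 for CDCA8 (SE 0.19, adjusted p = 4.61e-08), -2.50 for AURKB (SE 0.17), -2.40 for AURKA (SE 0.19), -2.18 for TPX2 (SE 0.19), -2.15 for INCENP (SE 0.13) and -1.77 for BIRC5 (SE 0.22). Both drugs share the untreated libraries in these comparisons. BORA, in RPM, changed by -2.15 (SE 0.15, adjusted p = 3.90e-09) with cytochalasin D, where 42.3% of genes were called lower, and by -1.92 (SE 0.15, adjusted p = 5.29e-08) with ZM447439, where 35% were. In a sorted population, fewer cells in G2 or mitosis and less RNA per cell cannot be told apart.

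**Figure D2:**
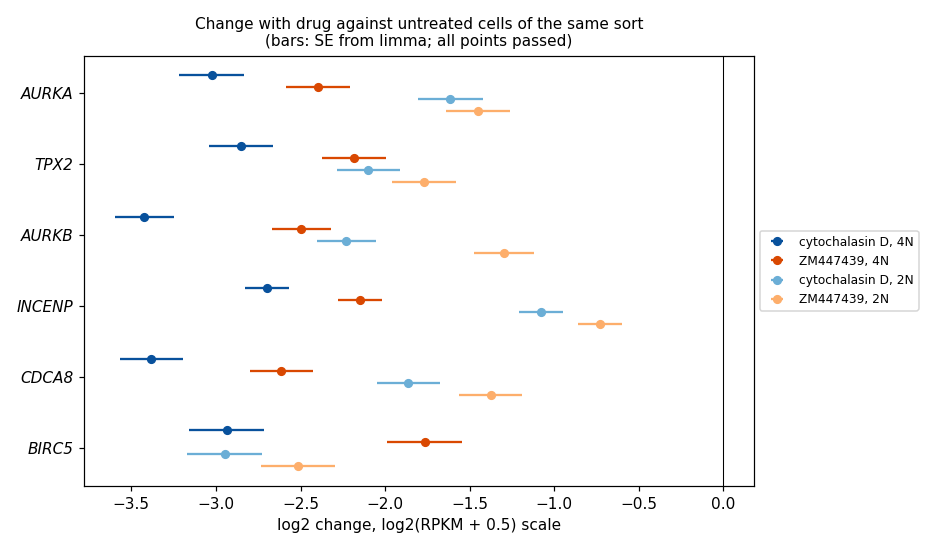
Difference of each drug from untreated cells of the same sort for the 6 tested genes, as log2 change on the log2(RPKM + 0.5) scale; points are limma estimates and bars their SE. All 24 points lie below 0, and cytochalasin D in 4N cells gives the lowest point of each gene except BIRC5, where both sorts with cytochalasin D lie at -2.94 and -2.95.

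In 2N cells, in which mean levels without treatment were lower than in 4N cells, all 6 fell with both drugs. With cytochalasin D, where 66.6% of all genes were called and 39.5% were called lower, the log2 change was -2.95 for BIRC5 (SE 0.22, adjusted p = 2.93e-08), -2.23 for AURKB (SE 0.17), -2.10 for TPX2 (SE 0.19), -1.86 for CDCA8 (SE 0.19), -1.61 for AURKA (SE 0.19) and -1.08 for INCENP (SE 0.13). With ZM447439, where 56% of all genes were called and 32.5% were called lower, the log2 change was -2.51 for BIRC5 (SE 0.22, adjusted p = 3.79e-07), -1.77 for TPX2 (SE 0.19), -1.45 for AURKA (SE 0.19), -1.38 for CDCA8 (SE 0.19), -1.30 for AURKB (SE 0.17) and -0.73 for INCENP (SE 0.13). BORA, in RPM, changed by -0.43 (SE 0.15, adjusted p = 0.0185) with cytochalasin D, where 37.5% of genes were called lower, and with ZM447439 its change of -0.36 (SE 0.15) did not pass (adjusted p = 0.0539). Markers of the cell cycle fell with these genes under the drugs. All 8 of them (MKI67, TOP2A, CCNB1, CDK1, CCNA2, PCNA, MCM5 and CCNE2) were lower in 2N cells with each drug and in 4N cells with cytochalasin D, and 7 were lower in 4N cells with ZM447439. Their summed level was 63.6 to 80.7 RPKM in untreated 2N libraries, 7.48 to 12.8 in cytochalasin D 2N and 16.2 to 28.1 in ZM447439 2N libraries. In 4N libraries it was 167 to 184 RPKM untreated, 14.8 to 17.9 with cytochalasin D and 36.1 to 38.3 with ZM447439. Between the untreated sorts the markers were divided: 5 of the 8 were called higher in 4N cells and 2 lower. Of all genes, 17.4% were called there and 12.9% were called higher. Mean PCNA was 18.7 RPKM in untreated 2N and 14.9 in untreated 4N cells, MCM5 7.69 and 5.52, and CCNE2 2.46 and 0.621. The part of cell cycle phase in the changes of the Aurora and passenger complex genes was not tested. Of 3 fibroblast markers, PDGFRB and COL1A1 passed the filter and DCN did not. PDGFRB, a growth factor receptor, rose with each drug in each sort, by 1.37 (SE 0.14) in 2N and 2.12 in 4N cells with cytochalasin D and by 1.12 and 1.68 with ZM447439. COL1A1, a collagen chain, rose with ZM447439 in 2N cells by 1.66 (SE 0.52, adjusted p = 0.0136) and did not pass in the other 3 drug comparisons. The summed level of the 3 markers was 6.10 to 6.90 RPKM in untreated 2N, 7.78 to 17.8 in cytochalasin D 2N and 17.6 to 24.6 in ZM447439 2N libraries. In 4N libraries it was 4.36 to 6.06 RPKM untreated, 7.73 to 14.8 with cytochalasin D and 9.88 to 21.0 with ZM447439. The part of these markers in the falls of the Aurora and passenger complex genes was not tested.

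Within the drug-treated cultures, the step from 2N to 4N cells was smaller for most of the genes. With ZM447439, 5 of the 6 tested genes were higher in 4N cells, where 7.66% of all genes were called and 5.21% were called higher. BIRC5 rose by 1.51 (SE 0.22, adjusted p = 0.00237), AURKA by 0.91 (SE 0.19, adjusted p = 0.0142), CDCA8 by 0.80 (SE 0.19), TPX2 by 0.79 (SE 0.19) and INCENP by 0.53 (SE 0.13). AURKB differed by 0.59 (SE 0.17) and missed the threshold (adjusted p = 0.0570), but passed with culture as a block (adjusted p = 0.0388) and without ZM447439 2N number 1 (adjusted p = 0.00696). Without ZM447439 number 2 or number 3, in either sort, BIRC5 alone passed. By culture, BIRC5 was 1.45, 4.98 and 5.62 times as high in 4N as in 2N cells in cultures 1, 2 and 3, AURKA 1.37, 3.80 and 4.82 times and AURKB 1.36, 1.69 and 1.90 times. Culture 1 had the smallest ratio for all 6 genes. With cytochalasin D none of the 6 passed and 0% of all genes were called by limma, while 682 genes had an unadjusted p under 0.05. The 6 estimates ran from 0.33 for INCENP (SE 0.13, adjusted p = 0.872) to 0.77 for BIRC5 (SE 0.22, adjusted p = 0.649). Culture 1 again had the smallest ratios, 1.36 to 1.46, against 1.93 to 2.75 in culture 2 and 1.68 to 3.46 in culture 3. Without the 6 libraries that stood apart, all 6 genes passed with cytochalasin D, with changes of 0.37 to 0.98, where 3.65% of all genes were called higher. Leaving out the libraries farthest from their groups makes the spread smaller by construction (SE of AURKA 0.044 against 0.19, with 2 libraries a group), so these passes are no separate support for the differences.

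**Figure D3:**
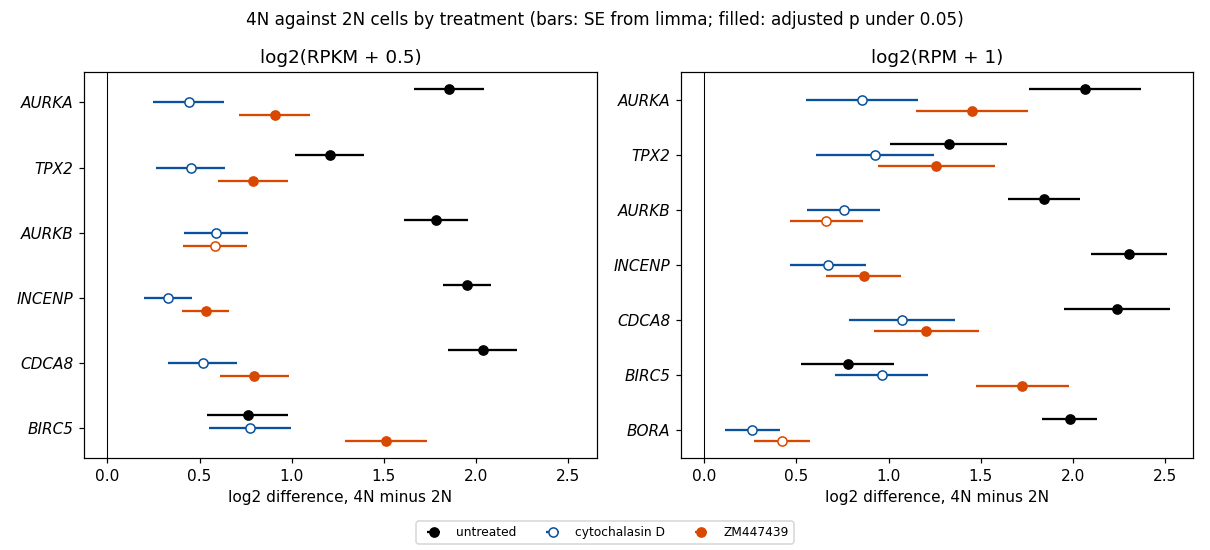
Difference between 4N and 2N cells in each treatment, as log2 change on the log2(RPKM + 0.5) scale (left, 6 genes) and the log2(RPM + 1) scale (right, with BORA); points are limma estimates, bars their SE, and filled points have an adjusted p under 0.05. The untreated step exceeds both drug steps for every gene shown except BIRC5, whose largest step, 1.51 on the left, is that of ZM447439.

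The interaction terms tested whether that step differed from the untreated one. With cytochalasin D the step was smaller for 4 of the 6 genes, where 7.85% of all genes were called and 6.04% were called with a smaller or reversed step. The difference of steps was -1.62 for INCENP (SE 0.18, adjusted p = 0.000123), -1.52 for CDCA8 (SE 0.27, adjusted p = 0.00275), -1.41 for AURKA (SE 0.27, adjusted p = 0.00517) and -1.19 for AURKB (SE 0.25, adjusted p = 0.00808). For TPX2 it was -0.75 (SE 0.27, adjusted p = 0.111, or 0.0492 with culture as a block), and for BIRC5 0.01 (SE 0.31, adjusted p = 0.992). With ZM447439 the step was smaller for the 4 genes INCENP, CDCA8, AURKB and AURKA, where 10.1% of all genes were called and 6.58% with a negative term. The terms were -1.42 for INCENP (SE 0.18), -1.24 for CDCA8 (SE 0.27), -1.20 for AURKB (SE 0.25) and -0.95 for AURKA (SE 0.27, adjusted p = 0.0407). The AURKA term did not pass with culture as a block (adjusted p = 0.0506) and passed in 3 of 12 fits that left out 1 library. Adding 0.5 RPKM shrinks steps most at low levels, such as those of the drug-treated cells. With 0.1 RPKM added, the terms with ZM447439 were -0.69 for AURKA, -1.07 for CDCA8, -1.18 for AURKB and -1.45 for INCENP. By mean RPKM the AURKA step was 4.13 times in untreated cells and 2.74 times with ZM447439. BIRC5 had a positive term, 0.75 (SE 0.31), which did not pass (adjusted p = 0.148) but did without ZM447439 2N number 1 (adjusted p = 0.00470), and TPX2 had -0.42 (SE 0.27, adjusted p = 0.361). On the RPM scale the terms of AURKA and CDCA8 did not pass with either drug (adjusted p = 0.0868 to 0.386), while those of AURKB and INCENP did. With a pseudocount of 0.1, INCENP alone passed with cytochalasin D, where AURKA (adjusted p = 0.0833), CDCA8 (adjusted p = 0.0758) and AURKB (adjusted p = 0.0510) did not. AURKB and INCENP passed with ZM447439 at that pseudocount, where AURKA (adjusted p = 0.331) and CDCA8 (adjusted p = 0.106) did not. In RPM, BORA had a term of -1.72 (SE 0.21, adjusted p = 0.000211) with cytochalasin D and -1.56 (SE 0.21, adjusted p = 0.000427) with ZM447439. Of all genes in RPM, 6.92% and 8.19% had a negative term that passed with these drugs. For the difference of steps between the drugs none of the 6 genes passed in limma (0% of all genes called, 753 with an unadjusted p under 0.05).

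The drugs were compared directly in each sort to ask whether blocked cytokinesis and Aurora inhibition leave the genes at like levels. In 4N cells all 6 tested genes were higher with ZM447439 than with cytochalasin D, where 43.5% of all genes were called and 27.8% were called higher. BIRC5 was higher by 1.17 (SE 0.22, adjusted p = 0.000730), AURKB by 0.93 (SE 0.17, adjusted p = 0.000709), CDCA8 by 0.77 (SE 0.19), TPX2 by 0.67 (SE 0.19), AURKA by 0.63 (SE 0.19, adjusted p = 0.0161) and INCENP by 0.55 (SE 0.13). The AURKA call was lost without number 2 or 3 of either group (highest adjusted p = 0.0574). In 2N cells AURKB alone passed, with 0.93 (SE 0.17, adjusted p = 0.000982), where 36.9% of all genes were called and 23.2% were called higher. INCENP, at 0.35 (SE 0.13, adjusted p = 0.0504), and CDCA8, at 0.49 (SE 0.19, adjusted p = 0.0555), missed the threshold narrowly, and AURKA was at 0.16 (SE 0.19, adjusted p = 0.538). Mean AURKB in 2N cells was 2.49 times as high with ZM447439, the inhibitor of its product, as with cytochalasin D. Without the 6 libraries that stood apart all 6 genes passed in 2N cells (0.13 to 0.91), where 31.9% of all genes were called higher, with the same narrowing of the spread by construction.

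A tetraploid cell in G1 has the DNA content of the 4N sort and the cell cycle phase of most untreated 2N cells, so the drug-treated 4N cells were also set against 2N cells without drug. Cytochalasin D 4N cells were lower for all 6 tested genes, where 66.6% of all genes were called and 40.2% were called lower. Their log2 changes were -2.18 for BIRC5 (SE 0.22, adjusted p = 7.51e-07), -1.65 for TPX2 (SE 0.19), -1.64 for AURKB (SE 0.17), -1.35 for CDCA8 (SE 0.19), -1.17 for AURKA (SE 0.19) and -0.75 for INCENP (SE 0.13). ZM447439 4N cells were lower for 5 of the 6, where 45.3% of all genes were called and 27.3% were called lower. BIRC5 fell by 1.00 (SE 0.22, adjusted p = 0.00201), and the log2 changes of the others were -0.98 for TPX2 (SE 0.19), -0.71 for AURKB (SE 0.17), -0.58 for CDCA8 (SE 0.19) and -0.54 for AURKA (SE 0.19). INCENP was at -0.20 (SE 0.13, adjusted p = 0.232), and passed without untreated 2N number 3 (adjusted p = 0.0199). The calls of AURKA and CDCA8 were lost without untreated 2N number 1, untreated 2N number 2 or ZM447439 4N number 1 (highest adjusted p = 0.128 and 0.0960).

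Genes that work with these kinases were taken from 3 lists drawn from general knowledge of the pathway. Of 13 genes for recruitment, partners and substrates of the passenger complex, 11 were tested, and 9 rose in untreated 4N against 2N cells and 0 fell (median 1.15), where 12.9% of all genes were called higher. KIF2C, a microtubule depolymerase that Aurora B restrains, rose by 1.78 (SE 0.17), and KIF23, a motor of the central spindle, by 1.63 (SE 0.17). The smallest values were those of RCC2, which rose by 0.20, and of the kinetochore subunit DSN1 at -0.03 (adjusted p = 0.767). All 11 fell with each drug in 4N cells, with medians of -2.32 for cytochalasin D and -1.98 for ZM447439, and 10 of 11 fell with each drug in 2N cells. Of all genes, 44.4% and 35.5% were called lower in 4N cells with cytochalasin D and ZM447439, and 39.5% and 32.5% in 2N cells. TTK, the spindle checkpoint kinase, changed by -2.24 and -1.83 in 4N cells with cytochalasin D and ZM447439, and HASPIN, whose mark on histone H3 recruits the complex, by -2.32 and -1.99. KIF20A, which carries the complex to the central spindle, stood out in ZM447439 cells: 4N exceeded 2N cells by 2.11 (SE 0.28, adjusted p = 0.00181), and its interaction term was 1.39 (SE 0.40, adjusted p = 0.0420), the only positive term that passed among the 11, while 7 passed with a negative term, as did 6.58% of all genes. With ZM447439 against cytochalasin D in 4N cells, 10 of the 11 were higher, where 27.8% of all genes were called higher, and CENPA, the centromeric histone, was at -0.001 (adjusted p = 0.969).

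**Figure D4:**
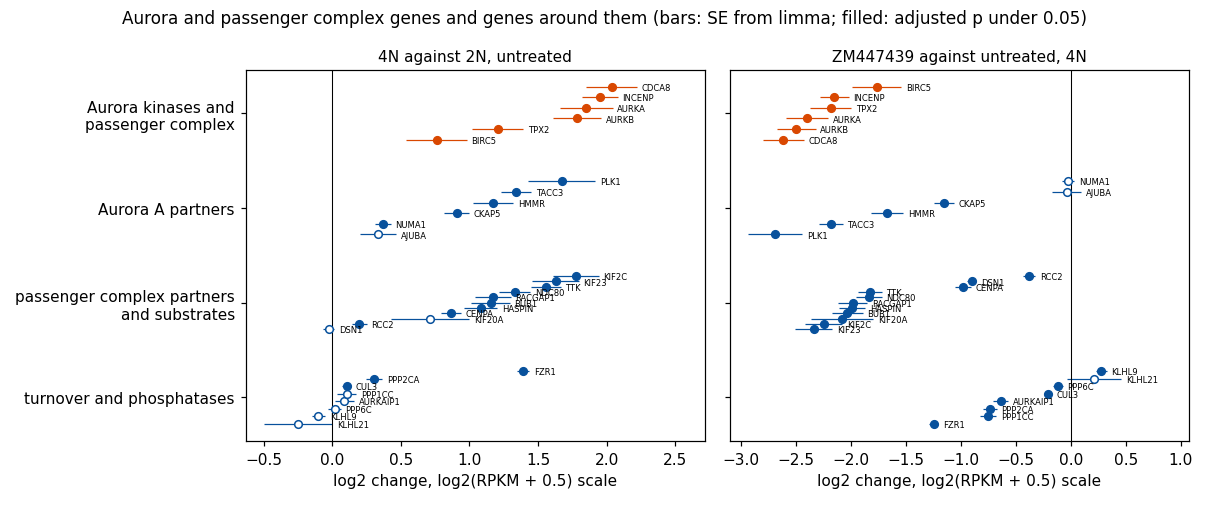
Change of the 6 tested Aurora and passenger complex genes (orange) and of the tested genes of 3 related lists (blue) between untreated 4N and 2N cells (left) and between ZM447439 and untreated 4N cells (right), as log2 change on the log2(RPKM + 0.5) scale; bars are SE from limma and filled points have an adjusted p under 0.05. Most Aurora A and passenger complex partners lie on the same side of 0 as the orange points, and among the turnover genes FZR1 lies farthest from 0, at 1.39 and -1.25.

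Of 8 Aurora A partners, 6 were tested, and 5 rose in untreated 4N against 2N cells and 0 fell (median 1.04, with 12.9% of all genes called higher). PLK1, the mitotic kinase that Aurora A activates with Bora, rose by 1.67 (SE 0.25), and TACC3, which Aurora A loads onto the spindle, by 1.34 (SE 0.11), while the LIM protein gene AJUBA was at 0.33 (adjusted p = 0.104). With cytochalasin D in 4N cells, where 44.4% of all genes were called lower, 5 fell and 1 rose: PLK1 changed by -3.51, and NUMA1, a spindle pole protein, rose by 0.44 (SE 0.06, adjusted p = 6.87e-06). With ZM447439 in 4N cells, where 35.5% were called lower, 4 fell, and NUMA1 at -0.03 and AJUBA at -0.04 did not pass. Under ZM447439 the step of PLK1 between the sorts was 1.72 (SE 0.25, adjusted p = 0.00223), with an interaction term of 0.05 (adjusted p = 0.953). Of 9 genes for turnover and counteracting phosphatases, 8 were tested, and 3 rose in untreated 4N cells with a median of 0.10. FZR1, the activator of the anaphase-promoting complex that directs both kinases to degradation, rose by 1.39 (SE 0.04, adjusted p = 1.77e-10), and its step was smaller with cytochalasin D by a term of -1.32 and with ZM447439 by -1.26. In 4N cells 6 of the 8 fell and 1 rose with each drug, where 44.4% of all genes were called lower with cytochalasin D and 35.5% with ZM447439. PPP2CA, a catalytic subunit of protein phosphatase 2A, changed by -1.03 with cytochalasin D and -0.74 with ZM447439. PPP6C, a catalytic subunit of the phosphatase that acts on Aurora A, changed by -0.22 and -0.12, and KLHL9, an adaptor that removes Aurora B from chromosomes, rose by 0.26 and 0.28.

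Across the 18 libraries, log2(RPKM + 0.5) of the 6 tested genes followed one another closely, with Pearson's r from 0.888 (INCENP with BIRC5) to 0.996 (AURKA with CDCA8). These coefficients describe 18 libraries in 6 groups that share treatments and depth scaling. Among all tested genes, the 3 most like AURKA were KIF2C (r = 0.999), ASPM and GTSE1, and the 3 most like CDCA8 were ARHGAP11A (r = 0.998), NDC80 and GTSE1. AURKB was closest to KIF23 (r = 0.996), KIFC1 and KIF11, and INCENP to TTK (r = 0.998), CENPE and HJURP. TPX2 was closest to BUB1 (r = 0.997), SPAG5 and RACGAP1. The closest to BIRC5 were HMGB1P6 (r = 0.997), a pseudogene whose reads may belong to its parent gene or its copies, CENPW (r = 0.997) and H2AZ2 (r = 0.996). Ranked by their correlation with AURKA, CDCA8 was at rank 4 and BIRC5 at rank 352. BIRC5 was at rank 602 for AURKB and 717 for INCENP, so many other genes followed these members more closely than BIRC5 did.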

How the data were processed

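Polyadenylated RNA was sequenced from 18 libraries (6 groups of 3). Per the submitters' processing notes, CASAVA 1.8.2, TopHat2, edgeR and the hg19 build were used. Their order and settings, and the read counter, are not given in the sources used here. The authors deposited RPKM values for 57773 identifiers, and 52338 (90.6%) were given a symbol. Values worth under 200 reads came out as whole reads, within 0.05, in 86.6% to 87.3% of cases with the genomic span as length, and in 9.21% to 10.3% with exon length, where chance gives 10%. Reads and RPM were derived with that span, and precision was read from replicates.

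Testing took in genes whose mean reached 0.5 RPKM, on log2(RPKM + 0.5) with limma 3.58.1 in R 4.3.3, which understates changes of low genes. Group means were fitted over all 18 libraries with a trend on the level (degrees of freedom: 12 residual, 2.02 prior). Two-sided p-values were BH-adjusted over 13037 genes, with a threshold of 0.05. All 14 comparisons were fitted on the deposited values, and the fitting procedure was checked separately on simulated data. The simulated libraries had independent noise, without paired sorts or libraries that stand apart, so the check does not cover those features. P-values measure the spread between these cultures. Levels are mean ± SD, and errors of changes are SE from limma.

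Sorts of the same drug and number deviated together in 9 of 9 pairs (correlation of deviations 0.19 to 0.63). Of pairs of the same drug with different numbers, 6 of 18 exceeded 0.1 (range -0.54 to 0.39). Across drugs, 28 of 36 same-numbered and 24 of 72 different-numbered pairs exceeded 0.1. Some sorts followed a different number more closely than their own, so the correlations do not settle the pairing. The number was taken to pair the 2N and 4N sorts of a culture, which the labels do not say. Alternatives were a pseudocount of 0.1, no filter, RPM (log2(RPM + 1), mean of at least 1), 2 other scalings, a replicate block, only the groups compared, each library left out, and 6 libraries left out. RPM with the block was added after seeing the data. The genes and lists were chosen with earlier results of these data known. All 8 genes are named. For each tested one, the 3 genes with the highest correlation are named, and of other lists the 2 highest and lowest changes or genes of a defining role. Coordinates of whole genes are not printed, since the annotation used for spans (GENCODE 29) is of another build than the files; the promoter windows are given on RefSeq's GRCh38.p14.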

Additional observations from a re-analysis of the deposited data

Results flagged for a closer look

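Of the differences between treatments in the step from 2N to 4N cells, 8 passed the test of the difference itself (interaction term, limma with BH adjustment), where 7.85% of all genes passed with cytochalasin D and 10.1% with ZM447439. With cytochalasin D against untreated cells the terms were -1.41 for AURKA, -1.19 for AURKB, -1.62 for INCENP and -1.52 for CDCA8. With ZM447439 they were -0.95 for AURKA, -1.20 for AURKB, -1.42 for INCENP and -1.24 for CDCA8. With a pseudocount of 0.1, the terms of AURKA (adjusted p = 0.0833), AURKB (adjusted p = 0.0510) and CDCA8 (adjusted p = 0.0758) with cytochalasin D did not pass, nor did those of AURKA (adjusted p = 0.331) and CDCA8 (adjusted p = 0.106) with ZM447439. The terms of AURKA and CDCA8 did not pass in RPM with either drug. For AURKA with ZM447439 the term in RPM was -0.61, and with the replicate block it did not pass (adjusted p = 0.0506). INCENP passed with both drugs under these 3 alternatives. Both sets rest on the same untreated libraries, and no explanation was tested. The 4 genes were higher in 4N than in 2N cells in all 3 untreated cultures, and in all 3 cultures with each drug by a smaller ratio of group means. For AURKA the ratios of single cultures overlapped, at 1.37, 3.80 and 4.82 with ZM447439 and 3.61, 3.39 and 6.29 in untreated cells. The size of the terms depends in part on the 0.5 RPKM added, which shrinks steps most at low levels.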

How the results depend on the processing

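Of 1368 changes of single genes under alternatives, 1356 kept their direction and 1237 also their side of the threshold, while 77 no longer passed and 42 newly passed. The falls against untreated cells of the same sort, and the calls of ZM447439 against cytochalasin D in 4N cells, numbered 6 under every whole-table alternative. Of 228 counts of genes past the threshold, 199 lay within 1.5 times the reported count. For 4N against 2N cells with cytochalasin D (0 reported), 6 passed without the 6 libraries that stood apart and 1 in RPM with the replicate block. With ZM447439 (5 reported) 2 passed without the filter, 0 when only the groups compared were fitted, and 1 to 6 with 1 library left out. For ZM447439 against cytochalasin D in 2N cells (1 reported) 3 passed with the pseudocount of 0.1, in RPM and with the replicate block, 6 without the 6 libraries, 4 in RPM with the block, and 1 to 4 with 1 library left out (4 without cytochalasin D 2N number 1). For ZM447439 4N against untreated 2N cells (5 reported) 3 passed with the pseudocount of 0.1, without the filter, in RPM and with only the groups compared, and 3 to 6 with 1 library left out. For the interaction with cytochalasin D (4 reported) 1 passed with the pseudocount of 0.1 and 2 in RPM. For that with ZM447439 (4 reported) 2 passed with the pseudocount of 0.1, in RPM and in RPM with the block. For that between the drugs (0 reported) 4 passed without the 6 libraries, and 0 to 1 with 1 library left out. The 6 libraries lay farthest from their groups, so leaving them out narrows the spread by construction. The other causes were not tested.

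Pairing the sorts of a culture in a block left 5 of the 6 genes called in untreated cells, 6 with ZM447439, 5 for the interaction with cytochalasin D and 3 for that with ZM447439. The replicate number as a block across drugs, which the labels do not support, gave INCENP (adjusted p = 0.0220) and CDCA8 (adjusted p = 0.0426) as higher with ZM447439 than with cytochalasin D in 2N cells. The block changed no call in the other comparisons. Reversed signs occurred only in values near 0 that did not pass. AURKA in ZM447439 against cytochalasin D 2N cells went from -0.029 (without ZM447439 2N number 1) to 0.33 with 1 library left out. BIRC5 in the interaction with cytochalasin D ranged from -0.060 to 0.13 with 1 library left out, with 5 values below 0 (-0.017, -0.032, -0.06, -0.034, -0.03). AURKB in the interaction between the drugs (-0.0041) ranged from -0.16 to 0.17, with 6 above 0 (0.12, 0.031, 0.014, 0.17, 0.047, 0.02). Depth limits AURKC, at 3 to 30 reads in a library, while the tested genes held at least 200.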
